A study of Rattus norvegicus with 32 samples.

Results

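The genes described here encode the cytosolic ribosomal proteins, the protein parts of the ribosome that translates nuclear messages. Members were chosen by symbol alone, as Rpl or Rps followed by a number and at most one of the letters a, x or l, together with the stalk proteins Rplp0, Rplp1 and Rplp2 and with Rpsa. This gave 78 of the 34322 genes in the deposited count table, 47 of the large subunit and 31 of the small. The filter on low counts kept 76 of them (46 large and 30 small) among 17059 genes. Rpl39l, at 0 to 0.84 CPM (its count relative to the scaled library size), and Rps17l, at 0 to 0.174 CPM, did not pass it.

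Polyadenylated RNA of the nucleus accumbens shell, a ventral striatal region, was sequenced in 32 rat libraries, labelled brain and wild type (WT). All rats had been conditioned with shocks, together with a neutral cue or with a lemon odour, called the anxiety cue here. Before anxiety tests held with that cue, they received cannabidiol (CBD, a compound of cannabis that does not intoxicate) or vehicle. There were 4 groups of 8 libraries, from rats on vehicle with either the neutral or the anxiety cue and from rats on CBD with either cue. The sources used here give no strain, age or sex and do not say that each library is a different rat. P-values thus measure the spread between libraries, which may be partly technical. Library numbers follow the order of deposition and pair nothing. All 15 markers chosen for medium spiny neurons, the main neurons of this region, were in the table, and they summed to between 1831 and 11119.9 CPM.

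Each ribosome joins a small subunit, which reads the message, to a large subunit, which forms the peptide bond. Ribosomal protein genes are transcribed in nearly every cell at high levels, and their products are needed in nearly equal numbers. Their messages typically begin with a C and a run of pyrimidines, the terminal oligopyrimidine (TOP) motif. Through this motif mTORC1, a kinase complex that senses nutrients and growth factors, sets how much of each message is translated, with Larp1 as the protein that binds it. In neurons such messages are also carried into axons and dendrites.

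The annotated starts of members that the results turn on are shown because this motif is what such messages share. Each sequence, from RefSeq's promoter table on the GRCr8 assembly, has the 15 bases before the annotated start and the 15 from it, read on the strand of the gene. Capitals mark the unbroken run of C or T that begins at the start. Rpl10, Rpl17, Rpl31, Rplp0 and Rps18 begin with C and such a run, and Rpl3 begins with T.
Rpl10, chrX:157205835-157205864, plus strand: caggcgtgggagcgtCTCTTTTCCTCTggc
Rpl17, chr18:70856261-70856290, plus strand: tagccttcgcgcttcCTCTTCCTgttagcg
Rpl31, chr9:49143096-49143125, plus strand: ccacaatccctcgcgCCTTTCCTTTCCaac
Rplp0, chr12:46718376-46718405, minus strand: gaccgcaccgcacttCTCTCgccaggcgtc
Rps18, chr20:4933730-4933759, plus strand: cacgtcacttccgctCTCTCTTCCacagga
Rpl3, chr7:113507976-113508005, minus strand: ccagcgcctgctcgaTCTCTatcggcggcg
For contrast, Rps6, Rps27l and Rpl3l do not begin with C or T at the annotated start, and Rps2 has a run of 1, after 15 bases that are all C or T.
Rps6, chr5:106420526-106420555, minus strand: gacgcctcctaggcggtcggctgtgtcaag
Rps2, chr10:14251833-14251862, plus strand: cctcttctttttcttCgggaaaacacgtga
Rps27l, chr8:76443643-76443672, plus strand: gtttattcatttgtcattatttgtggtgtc
Rpl3l, chr10:14258431-14258460, plus strand: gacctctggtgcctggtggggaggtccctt

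A single usable promoter was found for 58 of the 78 members (74.4%). Of the rest, 18 had none, Rps27a had more than 1, and Rpl37 was left out since its symbol now belongs to another row. This is under the 80% needed for a check over the whole set, so that check is void and the shares describe these 58 alone. A C at the start followed by 4 or more C or T was found in 21 of the 58 (36.2%) and in 443 of 17219 promoters of other genes in the count table (2.57%). The shares were 14 of 36 for the large subunit and 7 of 22 for the small. CCGGAAGT, a core bound by ETS factors, was searched on both strands of the promoter (250 bases before the start and 50 from it) and occurred in 7 of the 58 (12.1%) and in 5.19% of the others. These are matches of letters at an annotated start, which can lie some bases from the start used in this tissue.

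The summed level of the members was similar in 3 groups and more variable in the other. In vehicle neutral-cue libraries the members summed to between 9079 and 17338 CPM with a median of 10356, or 11329.8 ± 2744 CPM (SD, n = 8). In vehicle anxiety-cue libraries the sum lay between 9635 and 10853 with a median of 10246, or 10202 ± 429.6 CPM (SD, n = 8). CBD neutral-cue libraries spanned 9176 to 11779 with a median of 10242, or 10256 ± 813 CPM (SD, n = 8). CBD anxiety-cue libraries spanned 9194.5 to 11156 with a median of 10231, or 10358 ± 692 CPM (SD, n = 8). The ranges of all 4 groups overlap, and the vehicle neutral-cue group holds both the lowest library, library 3, and the highest, library 6. Without library 6 that group was at 10471 ± 1381 CPM with a highest value of 12665, in library 1. As a share of all counts the members took 1.14 ± 0.251%, 1.01 ± 0.0465%, 1.01 ± 0.089% and 1.04 ± 0.0645% in the same order of groups. Total counts were 11.65 to 24 M per library, so that counting error is small beside these spreads. In bulk tissue, fewer cells of a type and less RNA per cell cannot be told apart.

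**Figure D1:**
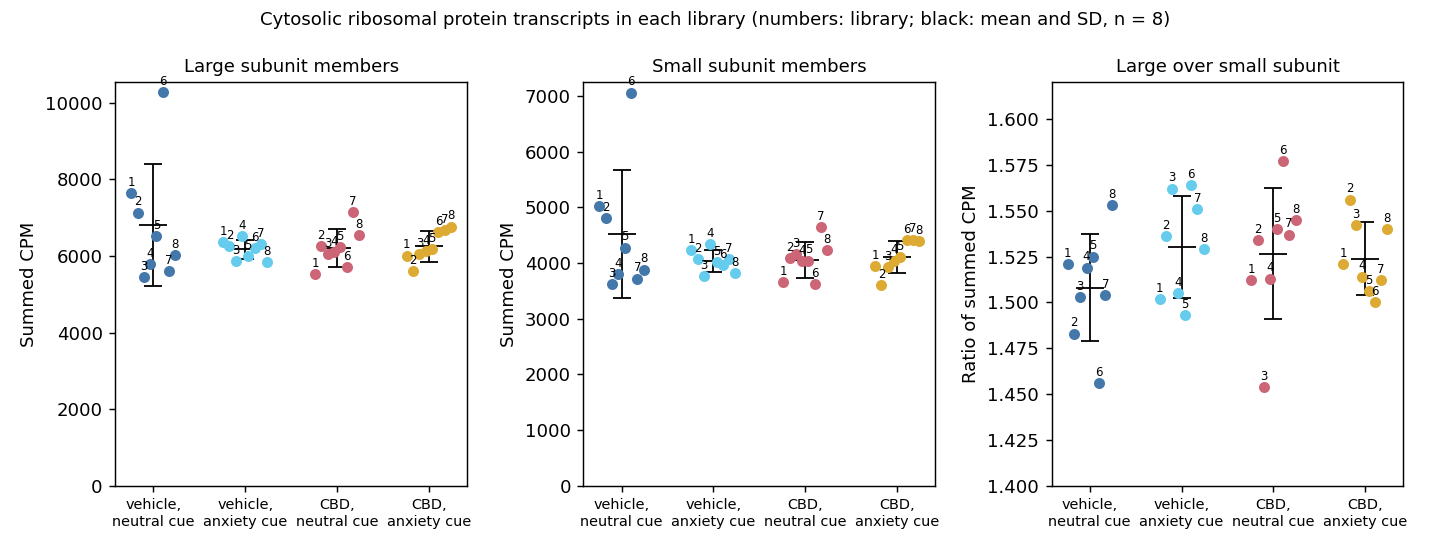
Summed level (CPM) of large subunit members, of small subunit members, and the ratio of the sums, in each of 32 libraries, numbered within group, with the mean and SD of each group (n = 8). Vehicle neutral-cue library 6 lies above all others in both sums, at 10278 and 7060.5 CPM, and the ratio axis starts at 1.4.

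Large and small subunit members moved together from library to library. Large subunit members summed to 6804 ± 1599 CPM in vehicle neutral-cue libraries, and to 6169 ± 244, 6196 ± 497 and 6253 ± 402 CPM with vehicle and anxiety cue, CBD and neutral cue, and CBD and anxiety cue (SD, n = 8 each). Small subunit members summed to 4526 ± 1147, 4033 ± 193, 4059.9 ± 324 and 4105 ± 292 CPM in that order. The ratio of the sums, which shows stability between libraries but no stoichiometry since counts were not divided by gene length, stayed between 1.454 and 1.577 with a median of 1.521. Its group means were 1.51 ± 0.0292, 1.53 ± 0.0279, 1.53 ± 0.0356 and 1.52 ± 0.0198, and differ by less than the SD among vehicle neutral-cue libraries. Library 6 was at 1.456, next to the lowest, CBD neutral-cue library 3.

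Vehicle neutral-cue library 6 stands apart, and most values of members and lists compared with its group are given with and without it. The fits with other tools and with marker covariates, given below, were not repeated without it. It held the highest level of all 32 libraries for 72 of the 76 members (94.7%), against 11.3% of all genes tested. The ratio of its level to the median of the other 7 libraries of its group had a median of 1.72 over members other than the paralogs named with a final l. That ratio ran from 1.27 for Rpl22 to 2.32 for Rps25, a small subunit protein known for its part in initiation at internal entry sites. It was 1.71 at the median for large and 1.77 for small subunit members, while over all genes tested the median was 0.981 and the 5 to 95% range 0.424 to 1.52. The 4 members that were not highest there were Rpl10l (a ratio of 0.722), Rps27l (1.07), Rpl3l (1.3) and Rps2 (1.44). Rpl22, Rps25 and the genes of this ratio's list named next, Rps21 (2.26), Rps14 (2.17) and Rpl30 (2.15), were chosen after their values were seen.

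Other gene lists moved with the members in library 6. It ranked first of 32 for the summed level of nuclear complex I genes (3232 CPM), proteasome genes (3656 CPM) and mitochondrial ribosomal proteins (2253 CPM), and last for nuclear noncoding RNAs (257.8 CPM, 2 measured of 7 listed). Of the lists described below, it ranked first for ribosomal proteins outside the naming rule, elongation and initiation factors, other TOP messages and ribosome biogenesis factors. For RNA polymerase I it ranked 13, and for mTORC1 and TOP control 17. It ranked 15 for medium spiny neuron markers, 12 for oligodendrocyte, 5 for astrocyte, 4 for microglia and 30 for endothelial markers. The quality weight that voom estimated for it was 0.296, the lowest of the 32 but close to the next. Vehicle anxiety-cue library 5 had 0.306 and vehicle neutral-cue library 4 had 0.347. The part of any of these in the level of the members was not tested. Libraries 1 and 2 of the same group came next in summed level, with 74 and 71 of the 76 members above their median over all libraries, and CBD neutral-cue library 7 followed with 72. Those with the fewest members above the median were CBD neutral-cue library 1 and CBD anxiety-cue library 2, with 2 each.

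**Figure D2:**
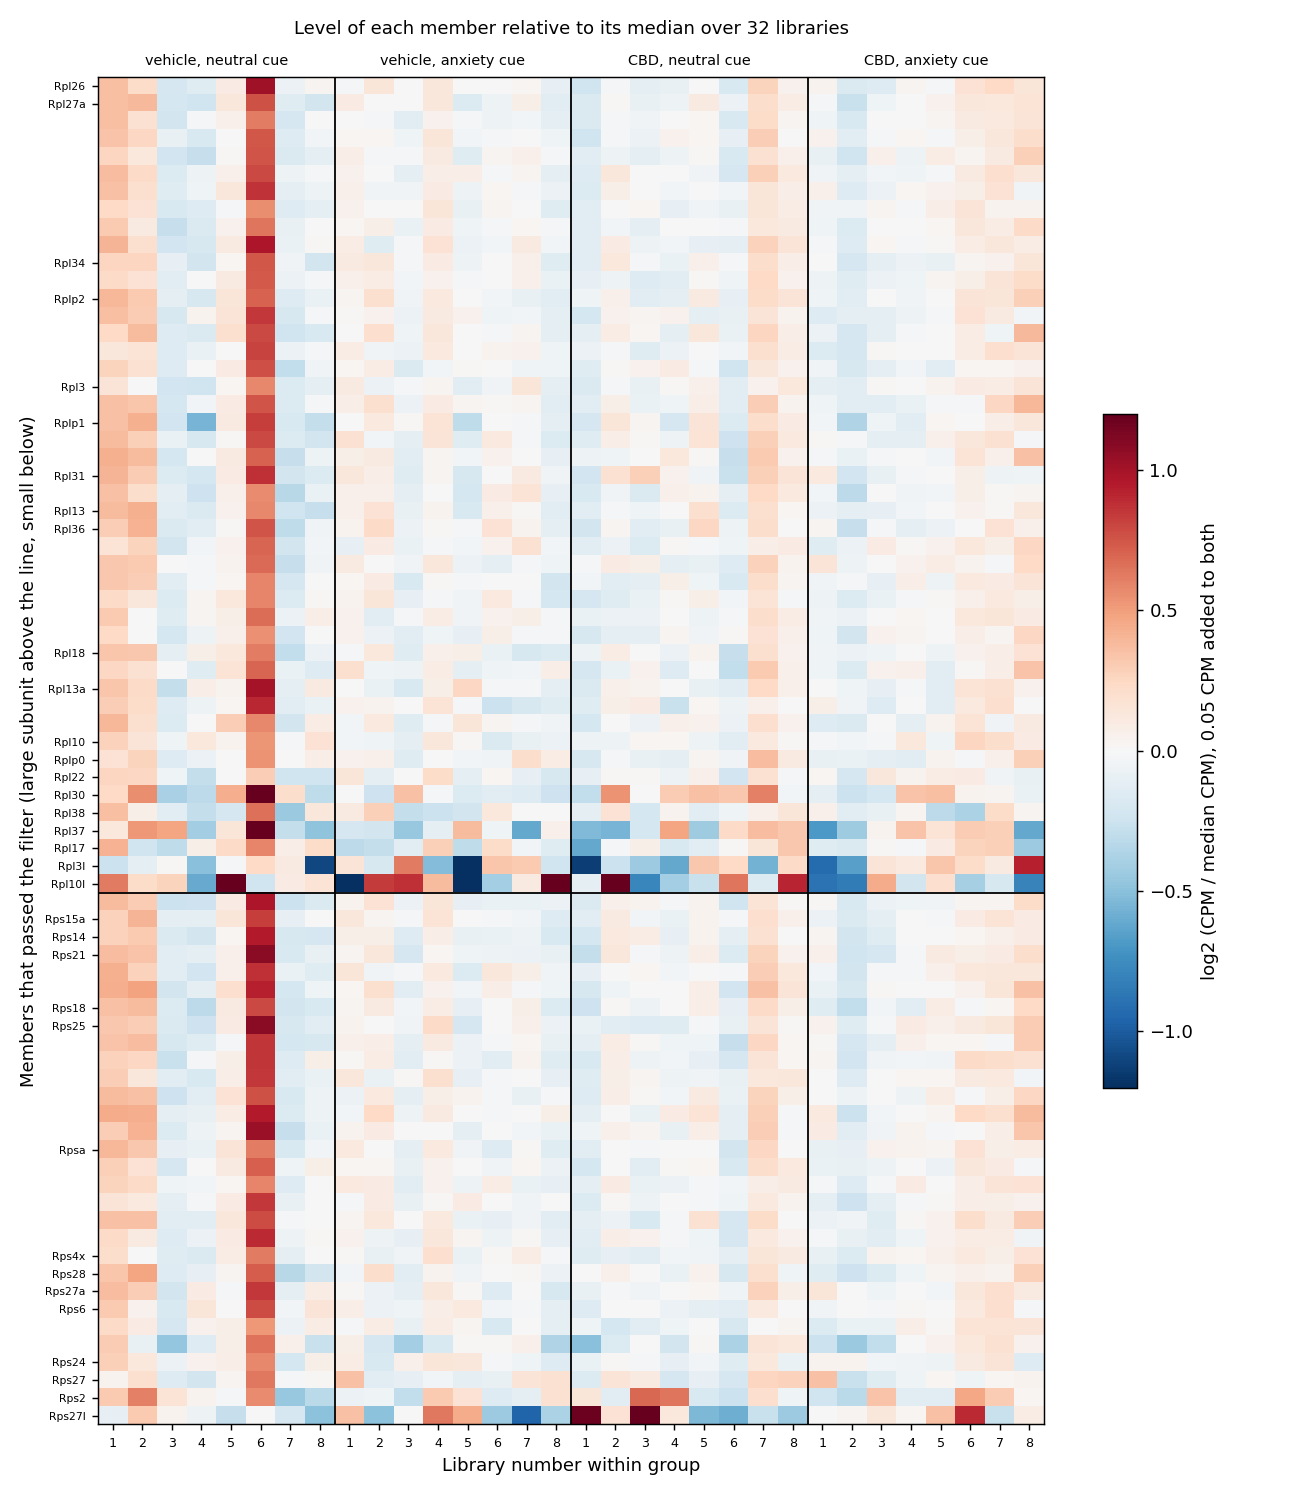
Level of each of 76 members (large subunit above the line, small below) in each library, as the log2 ratio to its median over 32 libraries after adding 0.05 CPM, with colours ending at 1.2 on each side. Members named in the text are labelled. The column of vehicle neutral-cue library 6 is red for nearly all members, while Rpl10l, Rpl3l and Rps27l do not follow it.

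Whether the anxiety cue by itself changes these genes was asked by comparing both cues among vehicle libraries. No member passed the test in edgeR's quasi-likelihood fit: 0 of 76 had a Benjamini-Hochberg adjusted p under 0.05, beside 0% of the 17059 genes. The direction was nearly uniform, with 74 of 76 members (97.4%) below 0, against 49.9% of all genes. Members rose and fell together between libraries, at a median Pearson's r of 0.914 with group means removed. Counts of members, here and below, are thus not counts of independent genes. The median log2 fold change was -0.15 for the members, -0.14 for large and -0.17 for small subunit members, against 0.00037 for all genes. At an unadjusted p under 0.05, 12 members were lower (15.8%) and 0 higher, against 6.34% and 6.41% of all genes. A fit of the compared groups alone gave 1 lower, against 4.08% of all genes. DESeq2 called 0 members, with 13 lower at that unadjusted threshold, against 6.98% of all genes. Voom with quality weights called 0, with 1 lower, a share below the 11% of all genes. With composition covariates (the mean levels of oligodendrocyte, septal, cortical and choroid plexus markers), 0 were called, the median was -0.21 and 46 were lower at that threshold, against 3.69%.

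Library 6 carried much of that difference. Without it the members' median was -0.046, with 64 of 76 below 0 and 1 lower at an unadjusted p under 0.05 (1 of 76, against 6.14% of all genes). The adjusted p was then at least 0.413 for every member. The direction also followed which other libraries were used. Without the libraries with 20 CPM or more of Slc17a6, a transporter of subcortical glutamate neurons, 5 vehicle neutral-cue libraries were left, library 6 among them. The median was then -0.30, with 66 members lower at an unadjusted p under 0.05, against 6.85% of all genes. With library 6 also out, a choice made after seeing the data, it was -0.13, with 13 lower against 3.97%. Without the libraries with 5 CPM or more of Plin1, a fat cell marker, 3 members passed the test (Rpl10, Rpl30 and Rps6) and the median was -0.24. That left 3 vehicle neutral-cue libraries, library 6 among them, and 3014 genes (17.7%) passed. With library 6 left out as well, vehicle neutral-cue libraries 7 and 8 alone were left of their group, both high in Slc17a6 (36.1 and 39.8 CPM). The median was then 0.10 with 10 members below 0, the opposite direction. In that fit 1 member passed (Rpl13, which was higher), a share below the 21.3% of all genes that passed. Medians of cell type markers were also off 0 between the same groups. For medium spiny neurons the markers' median was 0.46 on the log2 scale, with 15 of 15 above 0, and for septal and other subcortical neurons -0.73, with 8 of 8 below 0. Oligodendrocyte markers had -0.11 with 9 of 10 below 0, and fat cell markers -0.74 with 6 of 7 below 0. The summed ranges of these lists overlap between the groups, and no gene of them passed (edgeR). Without library 6 the medians were 0.53, -0.80, -0.15 and -0.92. Among other lists, liver markers were then at 1.44 (5 of 6 above 0) and endothelial markers at 0.115 (7 of 9 above 0). Astrocyte markers were at -0.16 and microglia markers at -0.143, each with 9 of 9 below 0.

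**Figure D3:**
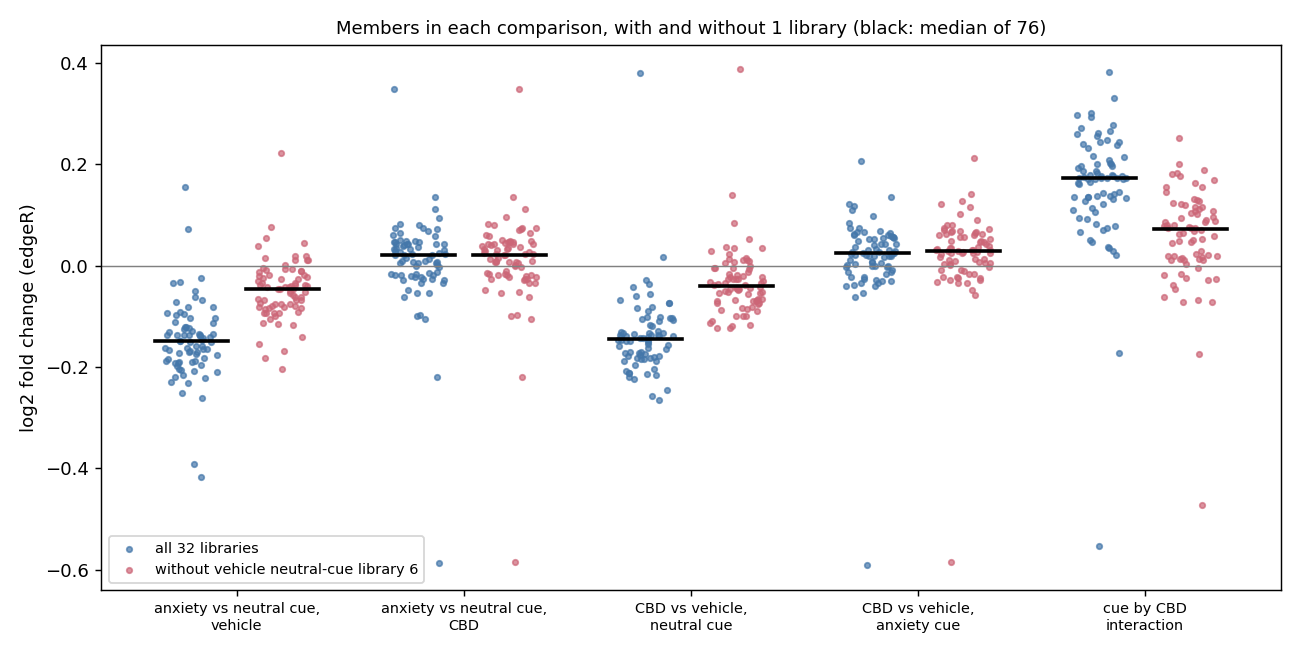
The log2 fold change (edgeR) of each of 76 members in 5 comparisons, in all 32 libraries (blue) and without vehicle neutral-cue library 6 (red), with the median as a black line. The 2 comparisons against vehicle neutral-cue libraries lie mostly below 0 and move toward 0 without library 6, and the 2 that do not use that group lie close to 0.

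Rpl10, which joins the large subunit in its last step of assembly beside the peptidyl transferase centre, had the smallest p of the members in this comparison. In vehicle neutral-cue libraries it was at 146 to 218 CPM with a median of 167, and in vehicle anxiety-cue libraries at 134 to 167 with a median of 145. The highest neutral-cue value is that of library 6, the others reached 183 CPM, and the ranges overlap. The log2 fold change was -0.21 (SE 0.0662, edgeR unadjusted p = 0.00378, adjusted p = 0.374). Without library 6 it was -0.16 (SE 0.0571, unadjusted p = 0.0105, adjusted p = 0.413), a smaller shift than that of the members' median.

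Rpl30 is a small protein of the large subunit that also binds the selenocysteine signal of messages. It was at 39 to 127 CPM with a median of 59.6 in vehicle neutral-cue libraries and at 42.9 to 65.1 with a median of 46.2 in vehicle anxiety-cue libraries. Library 6 again holds the highest value and the next is 74.9 CPM, while the lowest neutral-cue library is below all anxiety-cue ones. The log2 fold change was -0.39 (SE 0.175, edgeR adjusted p = 0.382), and -0.18 (SE 0.141, adjusted p = 0.543) without library 6.

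Rps27a is made as a fusion with ubiquitin and cut into a free ubiquitin and a small subunit protein. It was at 100.3 to 211 CPM with a median of 125 with the neutral cue, and at 102 to 129 with a median of 114 with the anxiety cue, both in vehicle libraries. Apart from library 6, the neutral-cue libraries reached 151 CPM and overlap the others. Its log2 fold change was -0.25 (SE 0.0967, edgeR adjusted p = 0.374), and -0.14 (SE 0.0719, adjusted p = 0.42) without library 6. Rps6, the small subunit protein phosphorylated by the kinases below mTORC1, was at 172 to 335 CPM with a median of 208 and at 180 to 212 with a median of 191 in the same groups. Its highest value outside library 6 was 242 CPM. The log2 fold change was -0.18 (SE 0.0846, edgeR adjusted p = 0.385), and -0.081 (SE 0.0589, adjusted p = 0.517) without library 6.

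Members often used as reference genes gave values on the same side. Rplp0, the core of the stalk that recruits elongation factors, was at 145 ± 23.8 and 136 ± 10.1 CPM in vehicle neutral-cue and anxiety-cue libraries (SD, n = 8 each), a log2 fold change of -0.093, or -0.03 without library 6. Its partners Rplp1 and Rplp2 were at -0.14 and -0.15, or at -0.0092 and -0.061 without it. Rpl13a, at 503 ± 156 and 429 ± 40.2 CPM, had -0.23, or -0.085 without that library. Rps18, at 116 ± 33.2 and 105 ± 6.88 CPM, had -0.14, or -0.023 without it. Rpl3, beside the peptidyl transferase centre, was at 487 ± 101 and 475 ± 33 CPM and had -0.035, or 0.054 without library 6. Rpsa, also known as a laminin receptor, was at -0.18, Rps4x at -0.069 and Rpl18 at -0.19, and without library 6 they were at -0.12, 0.018 and -0.12. None of these passed the edgeR test, with adjusted p from 0.385 to 0.854.

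The effect of CBD with the neutral cue uses the same 8 vehicle neutral-cue libraries as controls, so its values are not independent of those above. Again 0 of 76 members passed (edgeR, Benjamini-Hochberg), beside 0% of all genes. The members' median log2 fold change was -0.14, with -0.14 for large and -0.17 for small subunit members, and 74 of 76 were below 0 against 49.1% of all genes. At an unadjusted p under 0.05, 10 members were lower (13.2%), close to the 12.0% of all genes, and 0 were higher against 10.5%. That count followed the setting. In a fit of the compared groups alone it was 3, against 11.1% of all genes. It was 65 of 76 without the libraries high in Slc17a6, with a median of -0.28, against 5.78% of all genes, and 61 with composition covariates, against 3.19%. With both library 6 and the libraries high in Slc17a6 out it was 14, against 4.14%. DESeq2 called 0 members, with 10 lower against 12.1% of all genes, while it called 349 of all genes (2.05%). Without library 6 the median was -0.041, with 60 below 0 and 1 lower, a share below the 12.4% of all genes. Without the libraries high in Plin1, 4 members passed, Rpl10, Rpl26 and Rps6 among them, of 2803 genes (16.4%). With library 6 also out, which left vehicle neutral-cue libraries 7 and 8 as controls, the median was 0.11, with 9 below 0. Rpl13 and Rps28 then passed, both higher, while 19.7% of all genes passed.

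Markers of cell types moved in the same comparison. Oligodendrocyte markers summed to 7774 to 11608 CPM in vehicle neutral-cue libraries and to 3988 to 8384 CPM in CBD neutral-cue libraries. Their median was -0.41 on the log2 scale, and 10 of 10 were lower at an unadjusted p under 0.05. Medium spiny neuron markers summed to 1831 to 9008 and to 6369 to 9211 CPM, with a median of 0.53 and 15 of 15 above 0, 3 of them at an unadjusted p under 0.05. Septal and other subcortical markers had -0.97, with 5 of 8 lower at that threshold, and fat cell markers -3.64, with 5 of 7 lower, at 2.09 to 90.9 CPM summed with vehicle and 3.35 to 7.21 CPM with CBD. Liver markers had 3.2, with 4 of 6 higher. Of all genes, 12.0% were lower and 10.5% higher at that threshold. The summed ranges named here overlap between the groups, and no gene of these lists passed (edgeR). Without library 6 the medians were -0.43, 0.63, -1.03, -3.83 and 3.3 in that order. With the composition covariates the members' median was -0.25, and the part of fat and liver RNA in it was not tested.

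Among single members, Rpl10 was at 137 to 164 CPM with a median of 149 in CBD neutral-cue libraries, against 146 to 218 CPM with vehicle. The ranges overlap. Its log2 fold change was -0.18 (SE 0.0663, edgeR adjusted p = 0.135), and -0.12 (SE 0.0571, adjusted p = 0.191) without library 6. Rps6 was at 175 to 211 CPM with a median of 190 and had -0.22 (SE 0.0847, adjusted p = 0.142), and -0.12 (adjusted p = 0.222) without library 6. Rps24 was at -0.17 and Rpl30 at -0.075, and without library 6 they were at -0.099 and 0.14.

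In the comparisons that leave out vehicle neutral-cue libraries, the members' medians were near 0. The cue within CBD libraries gave a median of 0.021 on the log2 scale, with 49 of 76 members above 0 against 48.8% of all genes. No member passed (edgeR), beside 0% of all genes, and 0 were under an unadjusted p of 0.05 in either direction, against 2.29% lower and 1.65% higher of all genes. With composition covariates that median was 0.12, with 4 below 0 and 5 higher at an unadjusted p under 0.05 against 2.19% of all genes. Without the libraries high in Alb, which left 4 in each CBD group, it was -0.025, with 46 below 0. CBD with the anxiety cue gave a median of 0.024, with 53 above 0 against 48.3% of all genes. No member passed there either, beside 0% of all genes, and 0 were under an unadjusted p of 0.05, against 0.832% lower and 0.750% higher. With composition covariates its median was 0.07, with 7 below 0. The fit over all 32 libraries takes its spread from vehicle neutral-cue libraries too. A fit of the compared groups alone called 0 members in both. It gave 1 higher at an unadjusted p under 0.05 for the cue within CBD, against 2.91% of all genes. For CBD with the anxiety cue it gave 2, against 1.2%. DESeq2 and voom called 0 members in both, and the only one under an unadjusted p of 0.05 by these tools was 1 with voom for CBD with the anxiety cue, against 4.09% higher of all genes.

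Rpl10 and Rpl10l were among the members with the smallest p in these comparisons. Rpl10 was at 146 to 181 CPM with a median of 156 in CBD anxiety-cue libraries, and it differed from vehicle anxiety-cue libraries by 0.12 (SE 0.0662, unadjusted p = 0.0774, edgeR adjusted p = 1) on the log2 scale. The ranges overlap. Rps25 was at 0.13, Rpl31 at -0.10 and Rps2 at -0.11 for the cue within CBD. Rpl36 and Rpl34 were at -0.063 and -0.054 for CBD with the anxiety cue.

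The interaction, which asks whether the cue's effect differs between CBD and vehicle, gave a median log2 difference of 0.17 with 74 of 76 members above 0 against 48.8% of all genes. No member passed (edgeR), beside 0% of all genes. At an unadjusted p under 0.05, 5 were higher (6.58%), near the 7.02% of all genes, and 0 lower against 6.78%. This count too followed the setting. It was 56 without the libraries high in Slc17a6, against 5.52% of all genes, and 53 with composition covariates, against 3.35%. Library 6 was kept in both of these fits. Rpl10 was at 0.30 (SE 0.0937, unadjusted p = 0.00298, adjusted p = 0.321) and at 0.25 (adjusted p = 0.322) without library 6. Rps6 was at 0.26 and Rps27a at 0.29, or at 0.16 and 0.18 without that library. Without library 6 the members' median was 0.072 with 62 above 0. With the libraries high in Plin1 also out, which left libraries 7 and 8 of the vehicle neutral-cue group, it was -0.055 with 56 below 0. The members' direction thus differed between settings. The mean effect of the cue over drugs had a median of -0.067 (74 below 0 against 51.1% of all genes, 1 lower at an unadjusted p under 0.05 against 1.74% of all genes), and that of CBD over cues -0.064 (72 below 0 against 49.8%, 0 lower against 4.11%). In both, 0 members passed, beside 0% of all genes, and without library 6 the medians were -0.02 and -0.001. Rpl30 was the member under that threshold for the cue, at -0.30 (SE 0.124, edgeR adjusted p = 1), or -0.20 (adjusted p = 0.999) without library 6.

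**Figure D4:**
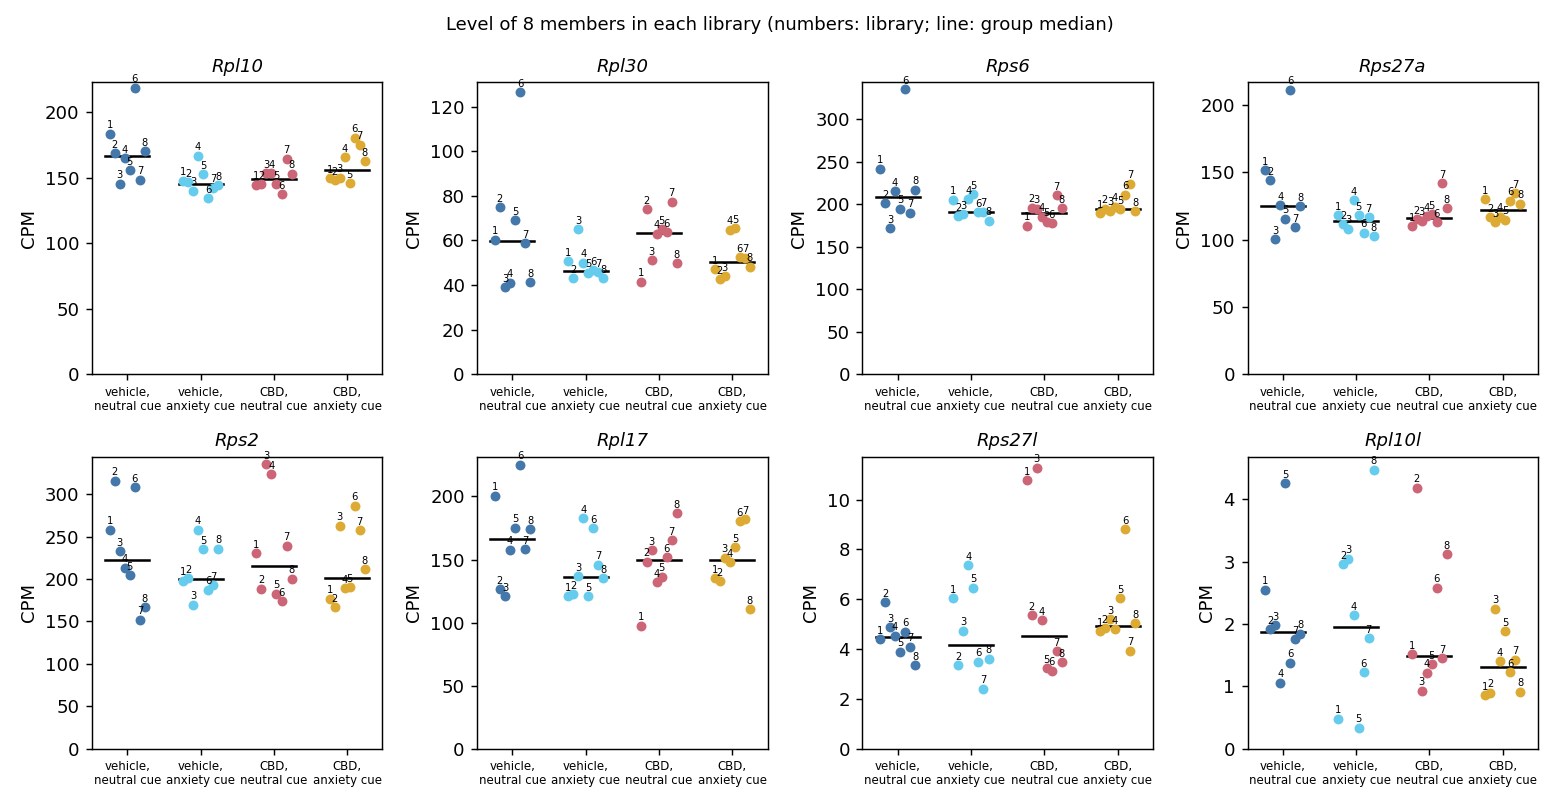
Level (CPM) of 8 members in each library, numbered within group, with the group median as a line. Vehicle neutral-cue library 6 is highest for Rpl10, Rpl30, Rps6, Rps27a and Rpl17, and not for Rps2, Rps27l or Rpl10l.

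Levels of most members followed one another. With group means removed, the log2 level of a member correlated with the mean of the other members at a median Pearson's r of 0.914 over the 32 libraries, with 44 of 76 above 0.9. All genes tested had a median of -0.0378 with the members' mean, and 7 genes outside the members were above 0.9. Without library 6 the members' median was 0.85, with 15 above 0.9 and 50 above 0.8, so this likeness did not rest on that library alone. Among the members most like the rest were Rps15a (0.961) and Rpl27a (0.96). Pairs of members, leaving out the paralogs named with l, had a median of 0.828 and ran from 0.134 to 0.974. All such values share the depth and scaling of each library and are descriptions with no test.

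**Figure D5:**
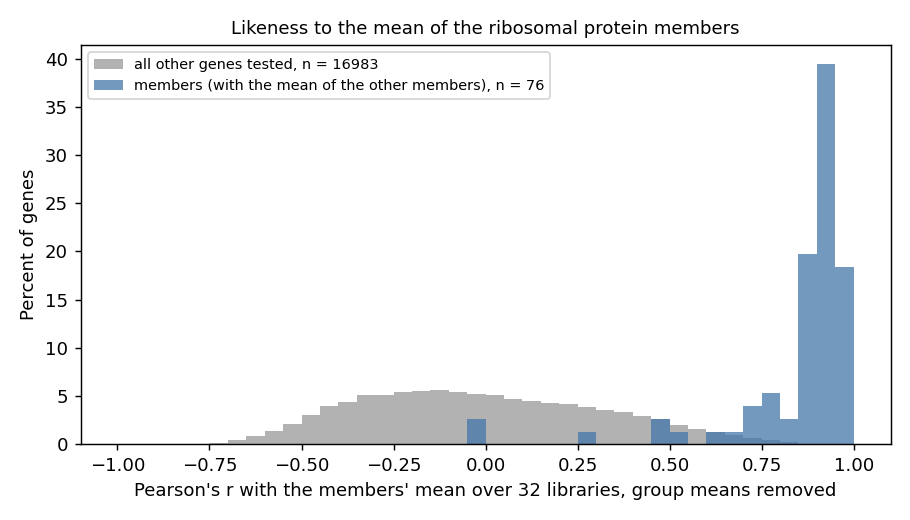
Pearson's r between each gene's log2 CPM and the mean of the members over 32 libraries, group means removed, for 76 members (each with the mean of the others) and the other 16983 genes tested, as percent of genes per bin. Most members lie above 0.8, and 2 paralogs lie near 0.

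The paralogs were the members least like the others. Rpl10l, a copy of Rpl10 known from testis, had an r of -0.0334 and was at 0.337 to 4.47 CPM over all libraries. Its medians were 1.88, 1.95, 1.48 and 1.32 CPM with vehicle and neutral cue, vehicle and anxiety cue, CBD and neutral cue, and CBD and anxiety cue, and all ranges overlap. It had a log2 fold change of -0.59 for the cue within CBD (SE 0.386, edgeR adjusted p = 0.995) and of -0.59 for CBD with the anxiety cue (SE 0.384, adjusted p = 1). Rpl3l, the copy of Rpl3 known from striated muscle, had an r of 0.253 and was at 0.225 to 1.52 CPM, while Rpl3 itself was at 406 to 714 CPM. It differed by 0.16 for the cue in vehicle and by 0.35 for the cue within CBD, with edgeR adjusted p of 0.802 and 0.995.

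Rps27l, a copy of Rps27 known as a target of p53, had an r of -0.0163. It was at 3.35 to 5.87 CPM with a median of 4.47 in vehicle neutral-cue libraries, and at 2.4 to 7.37 with a median of 4.17 in vehicle anxiety-cue libraries. In CBD libraries it was at 3.13 to 11.3 with a median of 4.54 with the neutral cue, and at 3.93 to 8.81 with a median of 4.93 with the anxiety cue. The 3 highest values belong to CBD neutral-cue libraries 3 and 1 and CBD anxiety-cue library 6, and the groups overlap. Its log2 fold change for CBD with the neutral cue was 0.38 (SE 0.251, edgeR adjusted p = 0.354). Without the libraries with 30 CPM or more of Alb, the liver albumin gene, it was -0.37, the opposite direction, with 4 CBD and 8 vehicle neutral-cue libraries left. The highest Alb in the CBD groups was in the same libraries as the highest Rps27l, at 227 CPM in CBD neutral-cue library 3 and 107 CPM in CBD anxiety-cue library 6. Its part in the Rps27l values was not tested.

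Some members not named as paralogs also departed from the rest. Rpl17 (an r of 0.476), Rps2 (0.485), Rpl37 (0.528) and Rpl38 (0.645) were next after the paralogs and, but for Rps2, were chosen after their values were seen. The row named Rpl37 reached only 1.74 CPM, and GRCr8 also lists that symbol as a synonym of Rpl37l1. It may thus be a copy, since LOC120093056, with the identifier of the gene now named Rpl37, had an r of 0.932. Rps2, near the entry of the message into the small subunit, was at 152 to 316 CPM with a median of 223 in vehicle neutral-cue libraries and at 170 to 258 with a median of 199.5 with vehicle and anxiety cue. With CBD it was at 174 to 335 with a median of 215 with the neutral cue, and at 167 to 287 with a median of 201 with the anxiety cue. Its 3 highest values were in CBD neutral-cue libraries 3 and 4 and vehicle neutral-cue library 2, not in library 6. CBD neutral-cue library 3 also had the lowest ratio of large to small subunit sums. Rpl17, at the tunnel through which the new chain leaves, was at 121 to 225, 121 to 183, 97.7 to 187 and 110 to 182 CPM in the 4 groups in that order, with medians of 166, 136, 149.9 and 149.7.

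Names and copies limit some of these values. RefSeq's table for GRCr8 lists 1028 annotated copies and pseudogenes of the members, for 73 of the 78, with a median of 13 and up to 36, those of Rps2. A search of the count table for names of the same form, a member's symbol with a suffix for a copy, found 19 rows. It could not find copies held under other names, such as LOC identifiers. The sources used here do not say how reads that match several copies were counted. Counts of members are uncertain to that extent. The row named Rpl37 was at 0.429 to 1.74 CPM, while LOC120093056, whose identifier belongs to the gene now named Rpl37 in GRCr8, was at 56.4 to 136 CPM and had an r of 0.932 with the members. Rps9, Rps19, Rpl35a and Rpl37a were not analysed here under those symbols, and Rps9l1 and Rps19l2 are listed in GRCr8 as symbols of their own and as synonyms of Rps9 and Rps19.

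The rest of the translation machinery was read from lists of related genes in the same edgeR fit, where 0 genes of any list passed in any comparison, beside 0% of all genes. The 6 ribosomal proteins and partners outside the naming rule, among them Fau (made as a fusion with a ubiquitin-like protein) and the scaffold Rack1, were at a median of -0.17 on the log2 scale for the cue in vehicle, with 6 of 6 below 0 and 1 lower at an unadjusted p under 0.05. Of all genes, 6.34% were lower at that threshold. Fau was at -0.16, Rack1 at -0.12 and Rpl36al at -0.25. Rpl36al, and Eef1b2 and Eif6 below, were named for the smallest p of their lists in this comparison, and the other genes named here were preset. Elongation factors (9 genes) had a median of -0.046, with Eef1b2, an exchange factor, at -0.26 and Eef1a1 at -0.044. Initiation factors (34 genes) had -0.029, with Eif6, which keeps large subunits apart from small ones, at -0.21. Other messages with a TOP motif (16 genes) had -0.059, with Tpt1 at -0.16 and Npm1 at -0.086. These lists were on the same side as the members with smaller medians, except for the partners. Without library 6 the medians of the 4 lists were -0.071, -0.031, 0.016 and -0.022 in that order, so that initiation factors lay on the other side, and Fau, Rack1, Rpl36al, Eef1b2, Eef1a1, Eif6, Tpt1 and Npm1 were at -0.048, -0.084, -0.17, -0.17, 0.0097, -0.15, -0.087 and -0.03. Whether the lists differ from the members was not tested.

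Genes that act in making ribosomes, rather than forming them, had medians at or above 0 in this comparison. Ribosome biogenesis factors (54 genes) had a median of 0.015. At an unadjusted p under 0.05, 2 were higher and 3 lower, against 6.41% and 6.34% of all genes. Nop10, among the lower and named for the smallest p of this list, was at -0.25, beside the preset Ncl at 0.039 and Fbl at 0.0021. RNA polymerase I genes (14 tested) had 0.063. Polr1a, its largest subunit, was preset and also had the smallest p of that list, at 0.26 (SE 0.0757, edgeR unadjusted p = 0.00181, adjusted p = 0.353). Genes of mTORC1 and TOP control (30 genes) had a median of 0.00026, with Mtor at 0.14, Larp1 at -0.093 and Rps6kb1, the kinase of Rps6, at 0.088. Without library 6 these 3 medians were 0.022, 0.06 and 0.021, and Polr1a was at 0.22 (edgeR adjusted p = 0.413), Nop10 at -0.18, Ncl at 0.079, Fbl at 0.068, Mtor at 0.094, Larp1 at -0.14 and Rps6kb1 at 0.07. Lists of other abundant complexes gave medians of -0.16 for nuclear complex I (35 genes, 16 lower at an unadjusted p under 0.05), -0.12 for the proteasome (31 genes, 9 lower) and -0.11 for mitochondrial ribosomal proteins (73 genes, 15 lower), in the same comparison as the members' -0.15. Of all genes, 6.34% were lower at that threshold. Without library 6 the complexes were at -0.11 (4 lower), -0.072 (3 lower) and -0.071 (6 lower), beside -0.046 for the members. Of all genes, 6.14% were then lower. Whether the members differ from these complexes was not tested.

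Members were also split by the starts shown above. The 21 tested members with a C and 4 or more C or T were at a median of -0.14 on the log2 scale for the cue in vehicle, and had a median ratio of 1.79 in library 6 and a median r of 0.922. The 35 others with a single usable promoter, leaving out the paralogs Rpl3l and Rps27l, had -0.15, 1.71 and 0.906. Without library 6 the medians of fold change were -0.03 and -0.05. No test was made of these medians.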

How the data were processed

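Values are counts of reads per gene that the authors deposited for 32 libraries, whole numbers for 34322 symbols. STAR, featureCounts and DESeq2, and the builds mRatBN7.2 and Rnor_6.0, are named per the submitters' processing notes. Versions, the role of each build, strand and the treatment of reads with several matches are not given in the sources used here. No column lacked a sample and 0 counts lacked a gene name. No libraries held identical values.

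Counts were tested with edgeR 4.0.16 (R 4.3.3): filterByExpr by group, TMM scaling, and a quasi-likelihood fit with a mean per group over all 32 libraries (common biological coefficient of variation 0.215). P-values were adjusted by Benjamini-Hochberg over 17059 genes, with a threshold of 0.05. CPM use TMM library sizes, and log2 CPM carry a prior count of 2. A median log2 fold change of members is a description with no test. On simulated data with 50 genes changed at each fold, edgeR recovered 34, 60, 78 and 94% at folds of 1.3, 1.5, 2 and 4 for the cue in vehicle, with 2.21% of calls false. Each gene was drawn there independently of the others, no library was set apart, and the changed genes were picked at random. These rates therefore do not describe genes that move together, as the members do, or shifts smaller than the folds tried. The precision is limited by the spread between libraries more than by depth (11.65 to 24 M counts).

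Promoter sequences were matched by symbol in RefSeq's GRCr8 table, and 28874 of 34322 symbols (84.1%) matched its gene list. Alternatives tried were DESeq2 1.42.0, voom with quality weights (limma 3.58.1), other scalings and filters, robust estimation, composition covariates, fits of the compared groups alone, and fits without each library or without libraries high in Slc17a6, Alb or Plin1. Members, gene lists and settings were chosen with earlier results of these data known. Named members are those with up to 4 smallest p in each direction of 4 comparisons, those least and most like the others, paralogs, and a preset list; a few genes so picked are not reported here. Of the ribosome and translation lists, the named genes are preset ones and those with the smallest p per list for the cue in vehicle. Naming the members highest per length was planned and not done, since no lengths of coding sequence were used here.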

Additional observations from a re-analysis of the deposited data

Results flagged for a closer look

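Dixon's criterion was applied to member levels in groups of 8 libraries. It set the highest or lowest library apart from its neighbour in 12 of 68 tests (17.6%). The tests share libraries and members, so they are not independent. Some of the genes tested, Rps21 among them, were chosen after their values were seen. The share therefore cannot be set against a chance rate.

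Vehicle neutral-cue library 6 gave 8 of the 12. It was high for the summed level of members (17338 CPM), of large subunit members (10278 CPM) and of small subunit members (7060.5 CPM). It was also high for Rpl30 (126.54 CPM), Rps21 (161.71 CPM), Rpl13a (859.9 CPM), Rps6 (335.27 CPM) and Rpl3 (713.52 CPM).

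The other 4 lay in other libraries. Rpl30 was high in vehicle anxiety-cue library 3 (65.063 CPM) and Rplp0 in CBD anxiety-cue library 8 (162.53 CPM). Rps27l was high in CBD anxiety-cue library 6 (8.8073 CPM) and Rpl10l in vehicle neutral-cue library 5 (4.2581 CPM).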

How the results depend on the processing

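No paired analysis was possible because library numbers follow the order of deposition and no label ties libraries across groups. With any 1 library left out, 0 members were called in all 7 comparisons. The members' median then ran from -0.19 to -0.046 (cue in vehicle), -0.19 to -0.041 (CBD with neutral cue), 0.072 to 0.21 (interaction), -0.09 to -0.02 (mean cue), -0.084 to -0.001 (mean CBD), -0.00074 to 0.049 (cue in CBD) and 0.011 to 0.046 (CBD with anxiety cue). The ends nearest to 0 in the first 5 are without vehicle neutral-cue library 6.

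Left-out libraries turned the sign of Rpl3 for the cue in vehicle (-0.069 to 0.054), Rps27l for the cue in vehicle (-0.051 to 0.16) and Rps2 for CBD with the neutral cue (-0.074 to 0.09). Without libraries high in Plin1 the members called were 3 (cue in vehicle), 4 (CBD with neutral cue) and 2 (interaction), where 17.7, 16.4 and 8.82% of all genes were called. With library 6 also out, which left libraries 7 and 8 of the vehicle neutral-cue group, they were 1, 2 and 0, and 1 for the mean cue effect (Rps25). Of all genes, 21.3, 19.7, 15.8 and 7.68% were then called, and the members' medians were 0.10, 0.11 and -0.055. There Rpl18 was at 0.09, Rplp0 at 0.019, Rps18 at 0.20 and Rpl3 at 0.15 for the cue in vehicle, and Rps24 at 0.024 for CBD with the neutral cue. Without libraries high in Slc17a6, Rps27l was at -0.11 (cue in vehicle) and Rps2 at -0.17 (CBD with neutral cue), and with library 6 also out they were at -0.094 and -0.11, and Rpl3 at 0.012 (cue in vehicle). Without libraries high in Alb, Rps27l was at -0.15 (cue in vehicle), -0.37 (CBD with neutral cue) and -0.084 (mean CBD effect), and Rps2 at -0.22 (CBD with neutral cue). With composition covariates the members' medians were -0.21, -0.25 and 0.32 (cue in vehicle, CBD with neutral cue, interaction) with 0 called. At an unadjusted p under 0.05, 46 and 61 members were then lower and 53 higher, against 3.69, 3.19 and 3.35% of all genes. For the cue in vehicle, they put Rpl3l at -0.11 and Rps27l at -0.0023, and voom quality weights put Rpl3 at 0.038. The cause of these changes was not tested. The settings with library 6 also out were chosen after seeing the data. Other scalings, filters, DESeq2 and robust estimation called 0 members. Depth limits the paralogs most, at a few CPM or less.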

Other observations

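Among the genes outside the members most like the members' mean over the 32 libraries, by Pearson's r with group means removed, were Rps19l2 (0.966), Fau (0.957), Rpl37a-ps1 (0.941), LOC120093056 (0.932), Naca (0.921), LOC103690996 (0.901), Bcas2 (0.891), Rps9l1 (0.89) and Ubac2 (0.875). LOC103690996 carries the identifier of Rpl35al1 in GRCr8, and Naca encodes a chaperone that binds new chains at the ribosome. Without vehicle neutral-cue library 6 these values were 0.939, 0.917, 0.895, 0.869, 0.849, 0.809, 0.806, 0.827 and 0.81.

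At the other end, LOC120101988, whose identifier in GRCr8 is that of the small nucleolar RNA Snora71e, had the lowest r, at -0.868, and -0.727 without library 6. Kdm2a, a histone demethylase, was at -0.796 and Setd5 at -0.786. Snhg11, a noncoding host gene of small nucleolar RNAs, was at -0.762, or -0.466 without library 6, and was at 151.5 CPM in that library. These are descriptions over libraries that share depth and scaling.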
